A study of Homo sapiens with 2 samples.

Results

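The genes described here are 42 genes of glucose transport, glycolysis and the response to hypoxia, chosen by name from the 19029 genes of the deposited table: 6 glucose transporters, 22 glycolytic enzymes and their regulators, and 14 genes of the pathway of the hypoxia-inducible factors (HIF). RNA sequencing compared BT549 breast cancer cells that overexpressed SNHG15, a long non-coding RNA and host gene of small nucleolar RNAs, with BT549 cells carrying a control vector. BT549 is an established human breast cancer cell line with mesenchymal features. Each group was 1 library, and both were grown in DMEM with fetal bovine serum, penicillin and streptomycin. Neither an oxygen level below that of ordinary culture nor a change of glucose was named for either group, so the groups differ by the SNHG15 construct and by whatever else separates these cultures. The labels do not say whether a clone or a pool of transfected cells was used. A gene count does not separate SNHG15 transcribed from the construct from that of the genome.

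Cells take up glucose through carriers of the SLC2A (GLUT) family, and hexokinase traps it by phosphorylation. Glycolysis then splits the sugar into triose phosphates and oxidises them to pyruvate, which lactate dehydrogenase can reduce to lactate. When oxygen is low, prolyl hydroxylases of the EGLN family no longer mark the HIF alpha subunits for destruction by the VHL ubiquitin ligase, and the alpha subunits pair with ARNT and activate genes that include many glucose carriers and glycolytic enzymes. Since HIF alpha is controlled largely at the level of the protein, its messenger RNA is not a measure of HIF activity. Many cancer cells use glycolysis strongly even in the presence of oxygen.

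The SNHG15 library held 16570496 counts and the vector library 20799017. SNHG15 itself had 34450 counts in the SNHG15 library against 466 in the vector library, 1997 and 23.3 CPM (counts per 1000000 after scaling), a ratio of 85.6 (95% interval 78.1 to 94.0). CPM values were scaled by the trimmed mean of M values (TMM), and each ratio here is that of the SNHG15 over the vector library. Its exact binomial interval covers counting error only. With 1 library per group there is no spread between replicates and no test between the conditions, and every difference is one between these 2 libraries. A gene was compared where its mean over both libraries was at least 1 CPM, and counted as higher or lower if it differed by 1.5-fold or more with an interval that left out 1. Among the 12934 genes compared, the median log2 ratio was 0.016 and the quartiles were -0.33 and 0.36. VIM, the intermediate filament of mesenchymal cells, had 1998 CPM in the SNHG15 library against 1993 CPM in the vector library. CDH1, the epithelial cadherin, had 0.696 and 0.551 CPM in the same order. CDH1 belonged to 6 markers listed as low or absent in BT549, of which 3 were measured. KRT8, a keratin, had 26.3 CPM in the SNHG15 library against 36.5 CPM in the vector library and was neither. ERBB3, a receptor tyrosine kinase, had 39 counts in the SNHG15 library against 15 in the vector library, or 2.26 and 0.751 CPM. It was higher, with a ratio of 3.01 (1.62 to 5.88), but lay near the floor and passed the filter on mean level only through the SNHG15 library. Of 6 mesenchymal markers, 2 were higher (SPARC and CDH2), 2 lower (ZEB1 and FN1) and 2 neither (VIM and SNAI2), among them CDH2, the neural cadherin, with 20.9 CPM in the SNHG15 library against 3.96 CPM in the vector library. Messages encoded by the mitochondrial genome made up 3.51% of the SNHG15 library and 4.67% of the vector library, and their part in the results was not tested.

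Of the 42 genes, 40 passed the filter on level. Of these 40, 5 were higher in the SNHG15 library (SLC2A1, SLC2A3, LDHB, HIF1A and P4HA1), which is 12.5% of them, beside 13.3% of all genes compared. A further 4 were lower (SLC2A6, HK2, GPI and ADM), which is 10% of them, beside 12.2% of all genes compared. The remaining 31 were neither, 77.5% beside 74.5% of all genes. Both shares of called genes lie near the background. The median log2 ratio of the 40 genes was 0.15. The whole interval lay past 2-fold on the higher side for 2 of the 40 genes, SLC2A1 and SLC2A3, beside 2.2% of all genes compared. On the lower side it did so for 0 of the 40, beside 2.45% of all genes. SLC2A3 had 6 counts in the vector library and passed the filter only through the SNHG15 library. Nothing is read from a count this small. Intervals excluded 1 for 30 of the 40 genes, 19 of them above 1 and 11 below, which at these depths often meant differences well under 1.5-fold. The same share over all genes compared was not computed, so nothing is read from these counts about the 40 genes as a set.

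**Figure D1:**
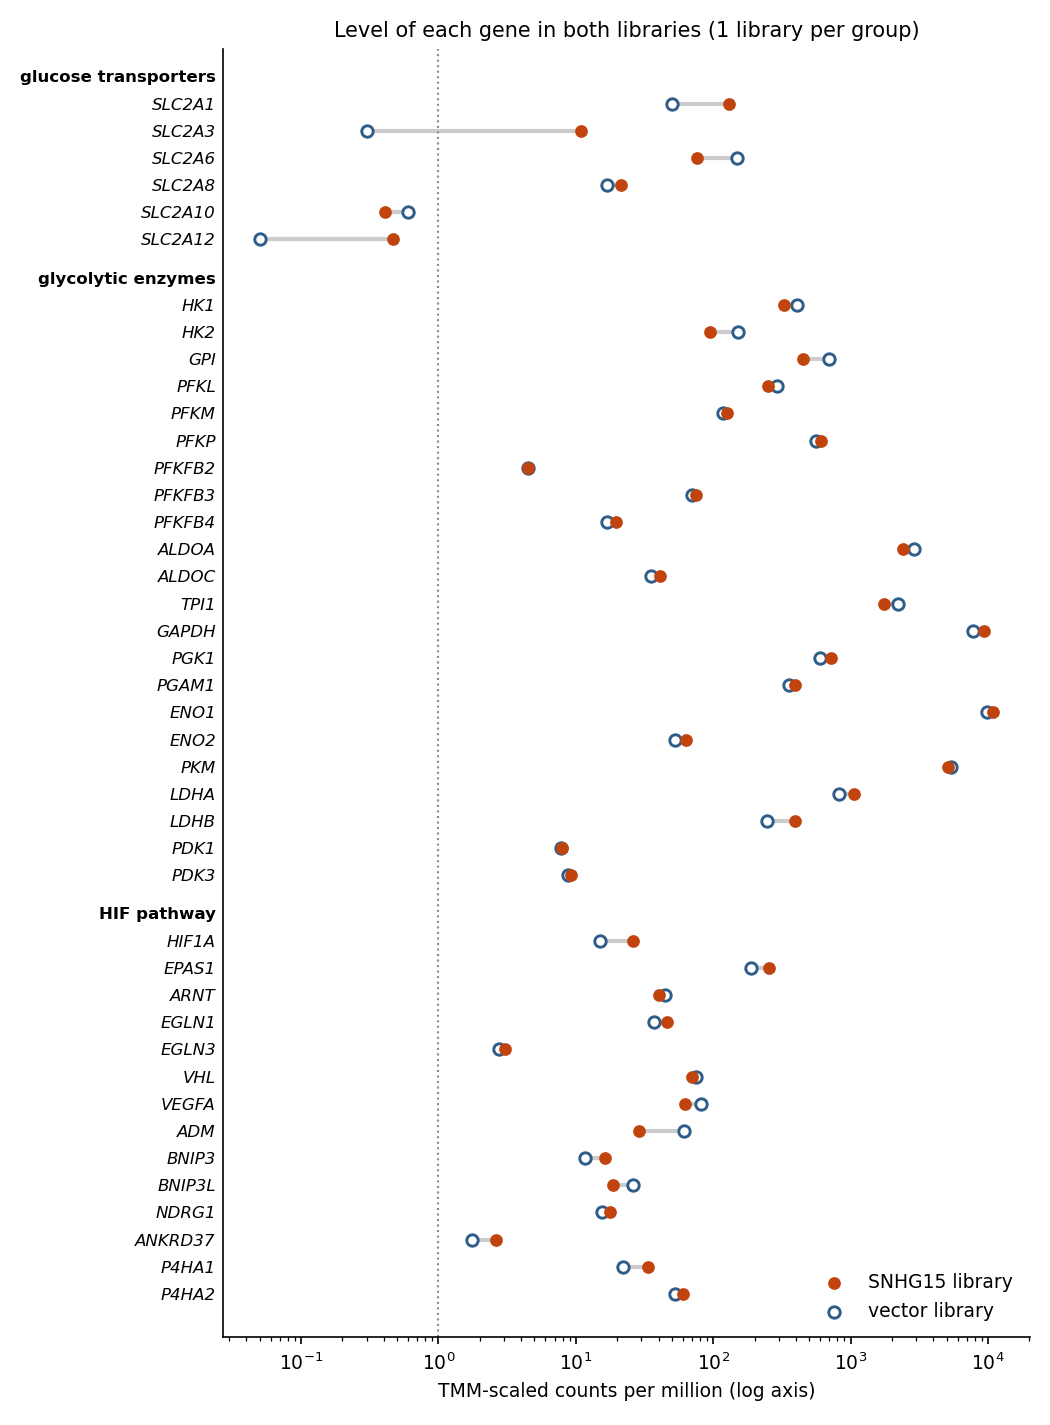
Level of the 42 genes as TMM-scaled CPM on a log axis, with filled points for the SNHG15 library and open points for the vector library and 1 library per group. The dotted line marks 1 CPM. ENO1 and GAPDH lie at the top near 10887 and 9366 CPM in the SNHG15 library, and the widest separation among the genes compared is that of SLC2A3.

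Of the 4 glucose transporters compared, 2 were higher in the SNHG15 library, 1 was lower and 1 was neither. These are 50%, 25% and 25% of them, beside 13.3%, 12.2% and 74.5% of all genes compared, and shares of 4 genes are coarse. SLC2A1 (GLUT1, the widespread basal glucose carrier; chr1:42925375-42959173, minus strand, hg38) had 2243 counts in the SNHG15 library against 1001 in the vector library, or 130.0 and 50.1 CPM, a ratio of 2.59 (2.41 to 2.80). SLC2A3 (GLUT3, a high-affinity carrier best known from neurons; chr12:7919230-7936275, minus strand) had 187 counts in the SNHG15 library against 6 in the vector library, or 10.8 and 0.300 CPM. Its ratio was 36.1 with a wide interval of 16.3 to 99.6, because the vector library held so few counts. In the SNHG15 library SLC2A3 was a message of modest level, while in the vector library it lay under 1 CPM. It therefore passed the filter on mean level only through the SNHG15 library. SLC2A6 (GLUT6, a carrier of intracellular membranes; chr9:133471095-133479137, minus strand) went the other way, with 1316 counts in the SNHG15 library against 2972 in the vector library, or 76.3 and 148.8 CPM. It was 1.95-fold lower in the SNHG15 library (1.83 to 2.08). SLC2A8 (GLUT8, also intracellular) had 369 and 337 counts in the SNHG15 and vector libraries, a ratio of 1.27 (1.09 to 1.47), which was neither higher nor lower by the rule. SLC2A10 (GLUT10) had 7 counts in the SNHG15 library against 12 in the vector library, and SLC2A12 (GLUT12) had 8 and 1, so neither was compared. The median log2 ratio of the 4 transporters compared was 0.86, beside 0.016 for all genes, and it hides 2 genes on the high side and 1 on the low side. It includes SLC2A3, so it does not describe the transporters as a group. The others compared had log2 ratios of 1.37 (SLC2A1), 0.34 (SLC2A8) and -0.96 (SLC2A6). The quartiles of all genes compared were -0.33 and 0.36.

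The calls of SLC2A1, SLC2A3 and SLC2A6 held under DESeq2 size factors, library totals, removal of the trend with transcript GC content, and subtraction of the median of the nearest 40 genes on the chromosome. The log2 ratio of SLC2A6 was -0.96 as counted and -0.65 with the GC trend removed. SLC2A3 has close relatives, and reads may be shared with them: SLC2A14 and the pseudogene SLC2A3P1 together held 6 counts in the SNHG15 library against 2 in the vector library, and with these added the ratio was 27.9 (13.9 to 65.6). Since bulk RNA was measured, a message present in fewer cells and a message with fewer copies per cell cannot be told apart.

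The make-up of the transporter messages differed as well. By the deposited FPKM, a level per length whose implied gene lengths were a median of 2.49 times those of the principal transcripts, SLC2A1 made up 43.1% of the 6 transporters in the SNHG15 library against 14.7% in the vector library. SLC2A6 made up 45.7% in the SNHG15 library against 79.0% in the vector library. SLC2A8 made up 8.39% and 5.87% in the same order, and SLC2A3 2.35% and 0.0578%. In the vector library SLC2A6 was thus the main transporter message, while in the SNHG15 library SLC2A1 and SLC2A6 were close to each other. Which of them led there depended on the length used, since counts divided by the length of the principal transcript gave SLC2A1 45.2% and SLC2A6 38.5% in the SNHG15 library, against 17.0% and 73.1% in the vector library. The ratio of SLC2A1 to SLC2A6 counts was 1.70 in the SNHG15 library against 0.337 in the vector library. That ratio was 5.06 times higher in the SNHG15 library (4.58 to 5.59), a value that depends neither on length nor on the scaling between libraries.

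**Figure D2:**
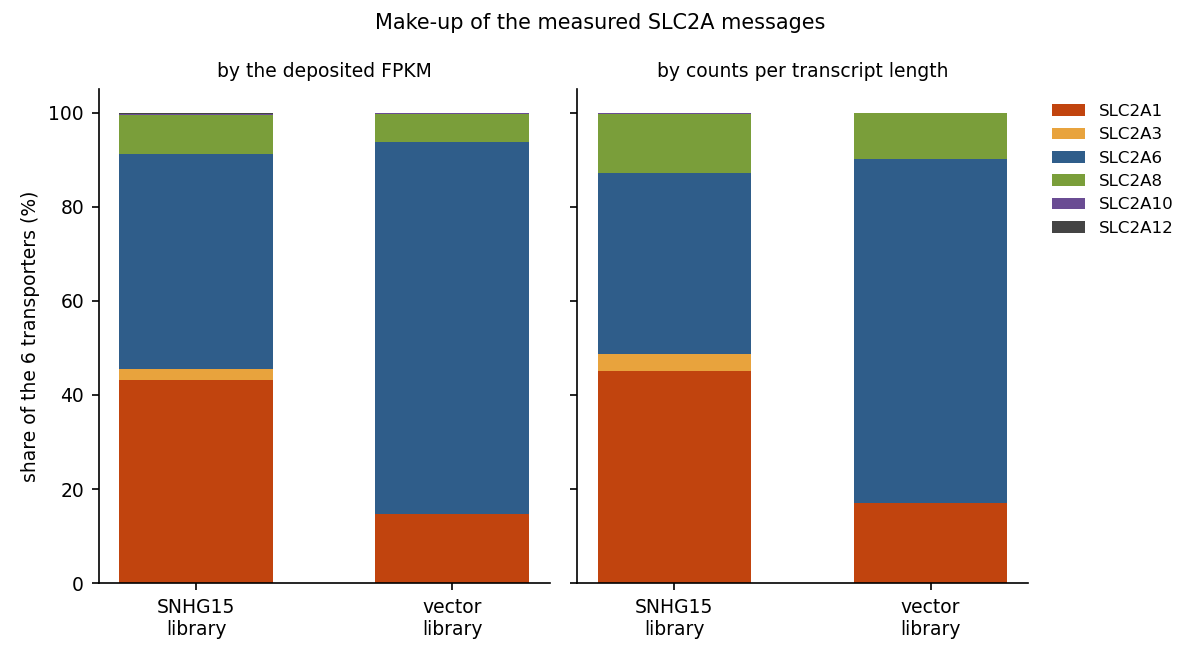
Share of each of the 6 SLC2A genes in their summed level, in percent, with the SNHG15 library left of the vector library; the left panel uses the deposited FPKM and the right panel counts per length of the principal transcript. In both panels the SLC2A1 share is larger in the SNHG15 library (43.1% and 45.2%) than in the vector library (14.7% and 17.0%).

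Most enzymes of glycolysis differed by less than 1.5-fold. Of the 22 enzymes and regulators, all passed the filter, 1 was higher (LDHB), 2 were lower (HK2 and GPI) and 19 were neither. These are 4.55%, 9.09% and 86.4% of the enzymes, beside 13.3%, 12.2% and 74.5% of all genes compared. Their median log2 ratio was 0.090, beside 0.016 for all genes compared. Together they held 3.56% of all unscaled counts in the SNHG15 library against 3.12% in the vector library, most of it from ENO1 and GAPDH. After TMM scaling the ratio of their summed counts was 1.053 (1.049 to 1.057).

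The entry of glucose into the pathway held both lower genes. HK2, the hexokinase typical of muscle and of many tumours (chr2:74833981-74893359, plus strand), had 1622 counts in the SNHG15 library against 3039 in the vector library, or 94.0 and 152.1 CPM, and was 1.62-fold lower (1.52 to 1.72). HK1, the widespread hexokinase, had 5694 counts in the SNHG15 library against 8082 in the vector library, a ratio of 0.816 (0.788 to 0.844), neither by the rule. HK1 was the larger of the 2 in both libraries, with 71.2% of their summed FPKM in the SNHG15 library against 65.2% in the vector library, and the ratio of HK1 to HK2 counts was 1.32 times higher in the SNHG15 library (1.23 to 1.42). GPI, which turns glucose 6-phosphate into fructose 6-phosphate (chr19:34359480-34402156, plus strand), had 7724 counts in the SNHG15 library against 13790 in the vector library, or 447.7 and 690.4 CPM, and was 1.54-fold lower (a ratio of 0.648, 0.631 to 0.667). Neither HK2 nor GPI was called with library totals (log2 ratios -0.58 and -0.51), and GPI was not called with the GC trend removed (-0.56). The nearest 40 genes had median log2 ratios of -0.28 around HK2 and -0.36 around GPI, and neither gene was called relative to them; the part of chromosomal position in the result was not tested.

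Phosphofructokinase, which commits the sugar to glycolysis, had 3 isozymes at ratios near 1. PFKL (liver type) stood at 0.862 (0.828 to 0.897), PFKM (muscle type) at 1.07 (1.01 to 1.13) and PFKP (platelet type) at 1.09 (1.07 to 1.12). PFKP was the most abundant per length in both libraries, with 77.2% of their summed FPKM in the SNHG15 library against 74.3% in the vector library. The ratio of PFKL to PFKP counts was 0.787 in the SNHG15 library relative to the vector library (0.751 to 0.826), while that of PFKM to PFKP was 0.974 (0.913 to 1.04). The PFKFB enzymes set the level of fructose 2,6-bisphosphate, the activator of phosphofructokinase, and none was called. PFKFB2 had 78 and 90 counts in the SNHG15 and vector libraries (ratio 1.003, 0.731 to 1.37), PFKFB3 had 1294 and 1409 (1.06, 0.985 to 1.15), and PFKFB4, a known HIF target, had 337 and 335 (1.16, 0.998 to 1.36). All 3 intervals included 1.

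ALDOA, the main aldolase, which splits fructose 1,6-bisphosphate, had a ratio of 0.832 (0.821 to 0.843), and the minor isozyme ALDOC stood at 1.16 (1.05 to 1.29). The ratio of ALDOA to ALDOC counts was 0.716 in the SNHG15 library relative to the vector library (0.643 to 0.796), although ALDOC held only 5.15% of their FPKM in the SNHG15 library against 3.74% in the vector library. TPI1, which interconverts the triose phosphates, stood at 0.799 (0.788 to 0.811). Its pseudogene rows held counts equal to 13.5% of TPI1 in the SNHG15 library against 12.2% in the vector library, and adding them gave 0.808.

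From the oxidation step to enolase the ratios lay above 1 and within 1.5-fold. GAPDH, the oxidising step and a common reference gene, had 161595 counts in the SNHG15 library against 155643 in the vector library, a ratio of 1.20 (1.19 to 1.21). PGK1, which makes ATP, stood at 1.20 (1.17 to 1.23), and PGAM1, the phosphoglycerate mutase, at 1.11 (1.07 to 1.15). ENO1, the main enolase, had 187843 counts in the SNHG15 library against 196249 in the vector library, a ratio of 1.11 after scaling (1.10 to 1.12). It had the highest TMM-scaled count of all genes in the SNHG15 library. ENO2, the enolase typical of neurons, stood at 1.19 (1.09 to 1.29). PKM, the pyruvate kinase of the next step, stood at 0.962 (0.953 to 0.971), and its direction flipped to 1.04 with library totals. A gene-level count does not separate its M1 and M2 splice forms.

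Both lactate dehydrogenase subunits were on the higher side, LDHB past the rule and LDHA short of it. LDHB (the heart-type subunit; chr12:21635342-21757857, minus strand) had 6842 counts in the SNHG15 library against 4959 in the vector library, or 396.5 and 248.3 CPM, a ratio of 1.60 (1.54 to 1.66). LDHA (the muscle-type subunit and a classical HIF target) had 18354 counts in the SNHG15 library against 16317 in the vector library, or 1064 and 816.9 CPM, a ratio of 1.30 (1.27 to 1.33). The ratio of LDHA to LDHB counts was 0.815 in the SNHG15 library relative to the vector library (0.781 to 0.851). LDHB was not called with the GC trend removed (log2 ratio 0.58, just under the limit), nor relative to the nearest 40 genes, whose median was 0.22. PDK1 and PDK3, kinases that switch off pyruvate dehydrogenase, stood at 1.01 (0.796 to 1.28) and 1.06 (0.848 to 1.32), both intervals including 1.

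With the isozymes of each step summed, most of the earlier steps lay below 1 and most of the later steps above it. Hexokinase stood at 0.762 (0.739 to 0.784), phosphoglucose isomerase at 0.648, phosphofructokinase at 1.02, aldolase at 0.836 and triosephosphate isomerase at 0.799. Glyceraldehyde-3-phosphate dehydrogenase and phosphoglycerate kinase both stood at 1.20, phosphoglycerate mutase and enolase both at 1.11, pyruvate kinase at 0.962 and lactate dehydrogenase at 1.37 (1.35 to 1.40). Of the 5 steps down to triosephosphate isomerase, 4 had intervals below 1 and 1 above, and of the 6 steps after it, 5 had intervals above 1 and 1 below. The summed counts of the 5 upper steps had a ratio of 0.826 (0.820 to 0.833), and those of the 6 lower steps 1.12 (1.115 to 1.124). With library totals these were 0.896 and 1.21, and with DESeq2 size factors 0.803 and 1.09. Phosphofructokinase flipped to 0.992 with DESeq2 size factors and pyruvate kinase to 1.04 with library totals, while the other 9 steps kept their side under the 3 scalings. A scaling multiplies all steps by the same factor, so it cannot test the contrast between upper and lower steps. Relative to the nearest genes, ALDOA (log2 ratio 0.071), PFKM (-0.15), PFKP (-0.051) and PGAM1 (-0.054) changed sign. The other enzymes of these steps kept theirs, with GPI at -0.25, TPI1 at -0.45, GAPDH at 0.15 and LDHA at 0.26. With the GC trend removed, PFKL (0.10) and PKM (0.013) changed sign. These are descriptions of 2 libraries, and the grouping into upper and lower steps was drawn after the values were seen.

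**Figure D3:**
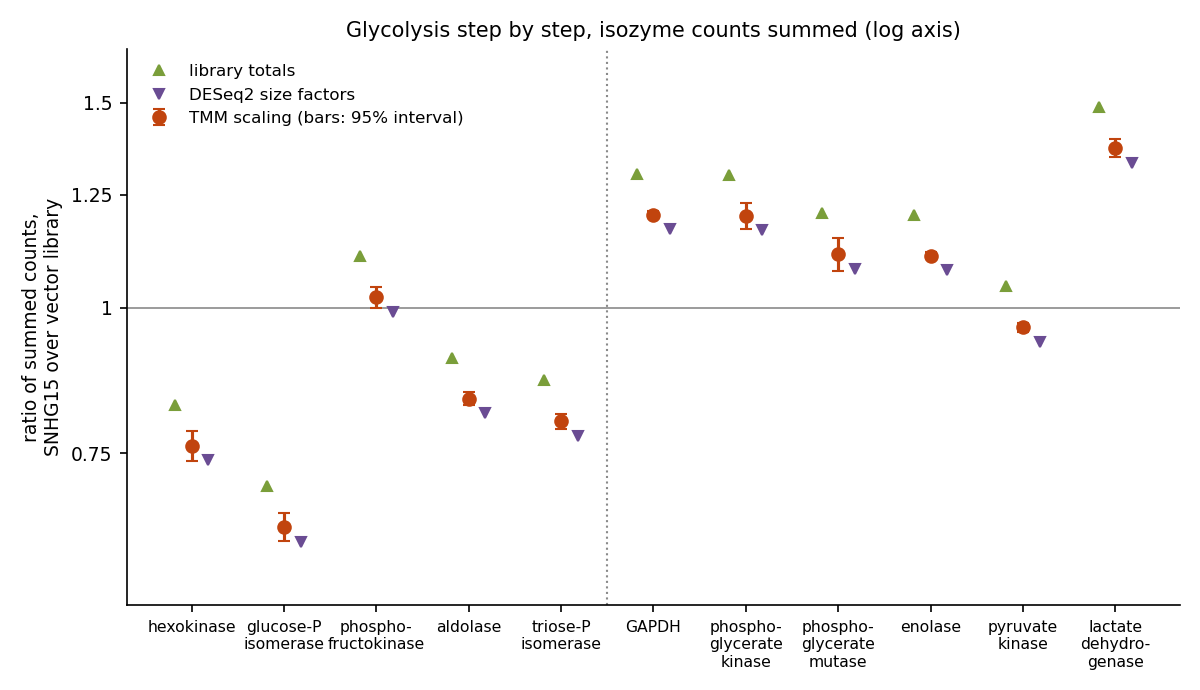
Ratio of summed isozyme counts, SNHG15 over vector library, on a log axis for the 11 steps from hexokinase to lactate dehydrogenase, under TMM scaling (circles with 95% intervals for counting error), library totals and DESeq2 size factors (triangles). The dotted line separates the 5 upper steps, with a ratio of 0.826, from the 6 lower steps, with a ratio of 1.12.

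Of the 14 HIF pathway genes, all passed the filter, 2 were higher (HIF1A and P4HA1), 1 was lower (ADM) and 11 were neither, with a median log2 ratio of 0.20. The higher and lower genes are 14.3% and 7.14% of the 14, beside 13.3% and 12.2% of all genes compared. HIF1A, the oxygen-regulated alpha subunit present in most cells (chr14:61695513-61748259, plus strand), had 452 counts in the SNHG15 library against 299 in the vector library, or 26.2 and 15.0 CPM, a ratio of 1.75 (1.51 to 2.03). EPAS1, which encodes the related subunit HIF2 alpha, had 4370 counts in the SNHG15 library against 3773 in the vector library, or 253.3 and 188.9 CPM, a ratio of 1.34 (1.28 to 1.40). EPAS1 was thus the dominant alpha subunit message, with 89.1% of the summed FPKM of both in the SNHG15 library against 91.5% in the vector library. The ratio of HIF1A to EPAS1 counts was 1.31 times higher in the SNHG15 library (1.12 to 1.53). HIF1A was not called relative to the nearest 40 genes, whose median log2 ratio was 0.46, the highest among the called genes. The part of chromosomal position in that result was not tested.

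None of the other components of the oxygen sensor among the 14 genes was called. ARNT, the partner of both alpha subunits, stood at 0.909 (0.822 to 1.005), and VHL, the recognition subunit of the ubiquitin ligase, at 0.929 (0.861 to 1.003), both intervals including 1. EGLN1, the main HIF prolyl hydroxylase, had 799 counts in the SNHG15 library against 744 in the vector library, a ratio of 1.24 (1.12 to 1.38). EGLN3, a hydroxylase that HIF itself induces, had 53 and 55 counts in the same order, a ratio of 1.12 (0.750 to 1.66). EGLN3 lies across SPTSSA on the same strand, which had 929 counts in the SNHG15 library against 555 in the vector library, so its few counts are uncertain.

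The known HIF targets among the 14 genes lay on both sides of 1. ADM, the vasodilator peptide adrenomedullin (chr11:10304680-10307397, plus strand), had 496 counts in the SNHG15 library against 1216 in the vector library, or 28.7 and 60.9 CPM. It was 2.12-fold lower in the SNHG15 library (1.91 to 2.36), and the nearest 40 genes had a median log2 ratio of 0.077. VEGFA, the angiogenic growth factor, had 1078 counts in the SNHG15 library against 1622 in the vector library, a ratio of 0.769 (0.712 to 0.832). P4HA1, an alpha subunit of collagen prolyl 4-hydroxylase (chr10:73007217-73096974, minus strand), had 576 counts in the SNHG15 library against 439 in the vector library, or 33.4 and 22.0 CPM, a ratio of 1.52 (1.34 to 1.72). P4HA2, the other collagen hydroxylase subunit measured, stood at 1.16 (1.06 to 1.26), and the ratio of P4HA1 to P4HA2 counts was 1.31 times higher in the SNHG15 library (1.13 to 1.53). P4HA1 stood just past the limit and was not called with DESeq2 size factors (log2 ratio 0.56), with the GC trend removed (0.42) or relative to the nearest genes.

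The mitophagy receptors BNIP3 and BNIP3L, related HIF targets, lay on opposite sides of 1. BNIP3 had 281 counts in the SNHG15 library against 233 in the vector library, a ratio of 1.40 (1.17 to 1.67). BNIP3L had 321 counts in the SNHG15 library against 520 in the vector library, a ratio of 0.715 (0.620 to 0.823). Neither was called, but the ratio of BNIP3 to BNIP3L counts was 1.95 times higher in the SNHG15 library (1.55 to 2.46). BNIP3L was called lower with the GC trend removed (log2 ratio -0.67) and BNIP3 higher with library totals (0.59). NDRG1, a stress-induced gene, stood at 1.14 (0.969 to 1.34). ANKRD37, a small ankyrin-repeat gene, had only 45 and 35 counts in the SNHG15 and vector libraries, a ratio of 1.49 (0.936 to 2.39); it overlaps UFSP2 on the other strand, which had 114 and 119 counts.

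**Figure D4:**
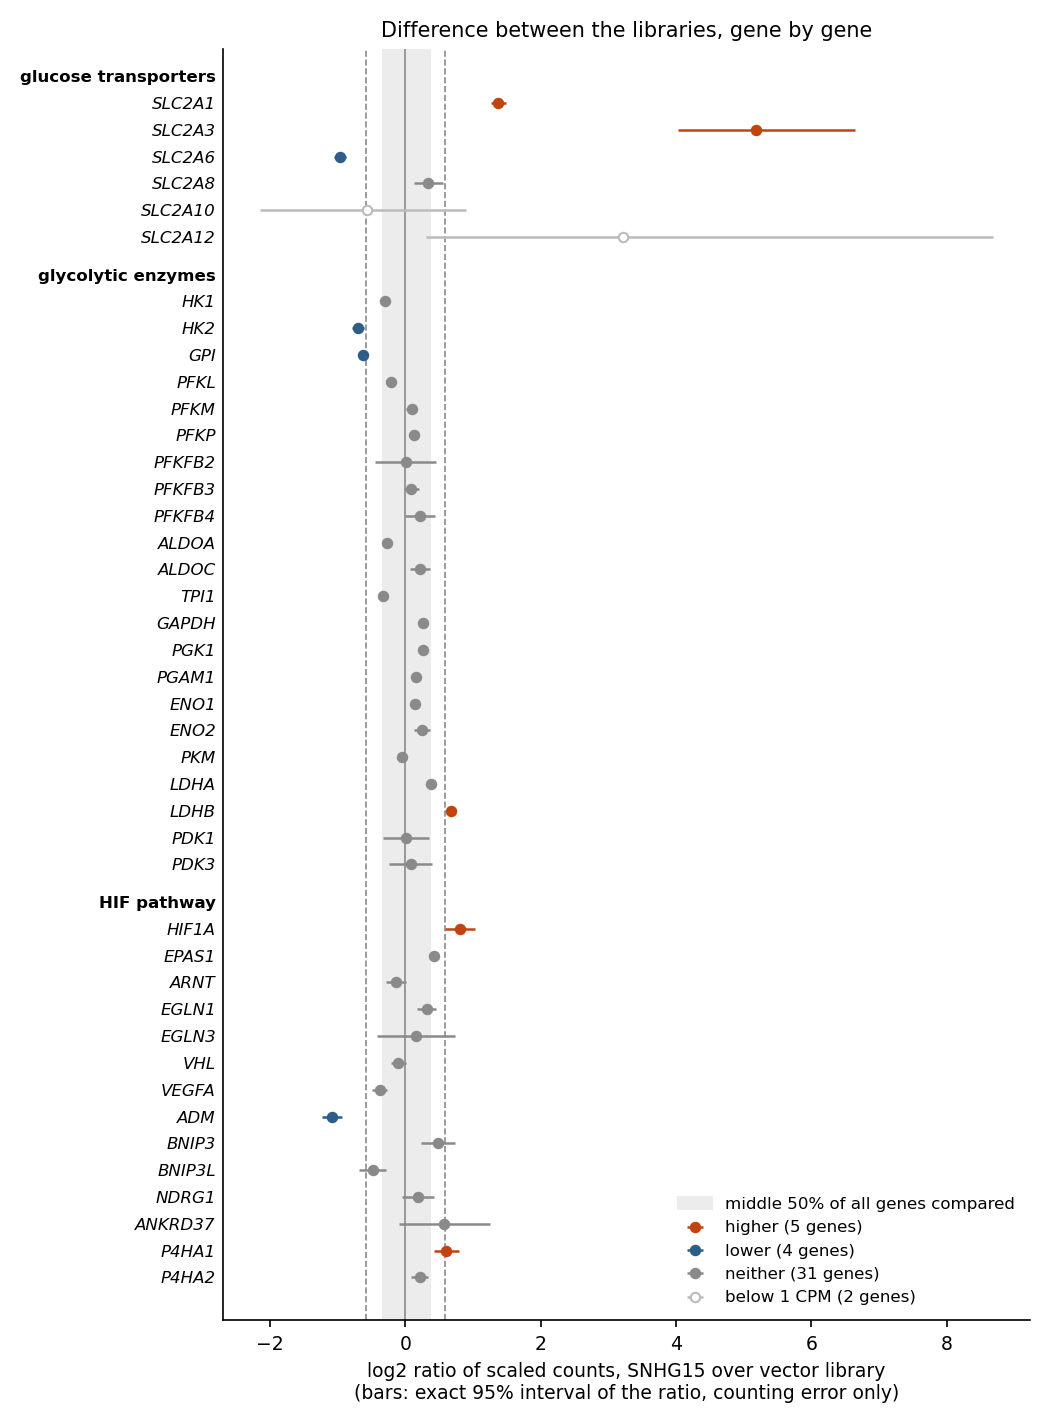
Log2 ratio of scaled counts, SNHG15 over vector library, for each of the 42 genes without a prior count, with the exact 95% interval for counting error. The grey band holds the middle 50% of all genes compared and the dashed lines mark 1.5-fold; 5 genes are higher, 4 lower and 31 neither, and the 2 open points lie below 1 CPM.

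HIF binds a short core in the hypoxia response element, and the promoters of the genes were searched for its forms ACGTG and GCGTG on both strands; the forms share the bases CGTG, and a palindromic match counts on each strand. A promoter was the 300 bases from 250 before to 50 after the first start listed for a gene by RefSeq on GRCh38.p14; 10 of the genes have further starts that were not used. A promoter was listed for 36 of the 42 genes, without BNIP3L, NDRG1, PFKFB2, SLC2A3, VEGFA and VHL. At least 1 match stood in 25 of the 36 promoters (69.4%), beside 48.4% of 27305 promoters of all genes. Those promoters were not matched to the 36 in GC content or in expression, and the core itself holds the bases CG. The 42 genes were also chosen by name and include known HIF targets, so the 2 shares do not test for an excess. Matches stood in 4 of 4 promoters of higher genes, 4 of 4 of lower genes and 16 of 26 of genes called neither. A match is not evidence of binding. The upstream 250 bases are shown for a higher gene, 2 lower genes and LDHA, a gene called neither, to show that the core occurs in all 3 kinds. They lie at chr14:61695263-61695512 (plus strand) for HIF1A, chr2:74833877-74834126 (plus strand) for HK2, chr11:10304823-10305072 (plus strand) for ADM and chr11:18394313-18394562 (plus strand) for LDHA. Capitals mark matches to the core or its reverse complement.
HIF1A: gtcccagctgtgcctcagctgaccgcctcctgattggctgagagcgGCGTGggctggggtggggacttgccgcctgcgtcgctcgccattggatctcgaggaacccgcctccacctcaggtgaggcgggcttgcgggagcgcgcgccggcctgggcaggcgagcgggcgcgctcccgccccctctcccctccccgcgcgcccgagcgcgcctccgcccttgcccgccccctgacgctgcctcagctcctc
HK2: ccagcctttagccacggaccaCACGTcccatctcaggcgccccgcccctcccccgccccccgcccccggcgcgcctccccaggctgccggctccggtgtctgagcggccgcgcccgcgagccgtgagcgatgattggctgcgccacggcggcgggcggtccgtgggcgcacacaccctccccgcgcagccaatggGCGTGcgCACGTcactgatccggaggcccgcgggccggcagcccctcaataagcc
ADM: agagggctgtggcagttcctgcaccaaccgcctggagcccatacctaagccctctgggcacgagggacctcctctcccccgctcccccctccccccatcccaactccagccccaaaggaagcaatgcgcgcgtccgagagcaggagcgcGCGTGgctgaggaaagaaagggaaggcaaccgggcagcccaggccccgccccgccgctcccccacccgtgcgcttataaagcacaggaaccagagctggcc
LDHA: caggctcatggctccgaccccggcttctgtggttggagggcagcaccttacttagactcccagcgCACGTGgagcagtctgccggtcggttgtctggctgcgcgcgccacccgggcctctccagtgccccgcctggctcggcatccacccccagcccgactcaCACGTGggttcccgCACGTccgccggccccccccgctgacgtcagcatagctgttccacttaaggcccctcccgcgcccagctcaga
HK2 held 3 upstream matches and LDHA 5, while HIF1A and ADM held 1 each. The higher genes SLC2A1 and LDHB each held 0 in the upstream 250 bases and 1 in the 50 bases after the start. The 4 of 4 for higher genes thus counts the whole 300 bases.

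The other genes of these pathways, in lists of 116 genes of which 86 were compared, gave 12 higher and 14 lower, with a median log2 ratio of -0.028. These are 14.0% and 16.3% of the 86, beside 13.3% and 12.2% of all genes compared, and the counts of each list stand against the same background. Of the other 4 hexose carriers and their regulators compared, 0 were higher and 3 were lower. SLC2A11 was 2.23-fold lower in the SNHG15 library, SLC2A5, the fructose carrier, 1.95-fold lower, and TXNIP, which draws carriers off the cell surface, 1.89-fold lower. Of 10 other enzymes around glycolysis, 1 was higher and 2 lower: PGM2, a phosphoglucomutase, had a ratio of 1.77, while ADPGK, the ADP-dependent glucokinase, was 2.16-fold lower and PGAM5, a mitochondrial phosphatase of the mutase family, 1.73-fold lower. Of 16 genes for the fate of pyruvate and lactate, 2 were higher and 1 lower. The lactate carrier SLC16A1 had a ratio of 1.80 (1.65 to 1.96) and MPC2, a subunit of the mitochondrial pyruvate carrier, 1.66. DLAT, a core subunit of pyruvate dehydrogenase, had 259 counts in the SNHG15 library against 715 in the vector library and was 2.38-fold lower. SLC16A3, the lactate exporter induced by HIF, had a ratio of 0.692 and was called neither. Of 10 pentose phosphate genes, 0 were higher and 3 were lower (PGLS, RPE and PRPS2, at ratios of 0.616, 0.596 and 0.594).

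The list of 12 HIF regulators held 0 higher and 2 lower genes. ARNT2, a relative of ARNT, had 70 counts in the SNHG15 library against 368 in the vector library, 4.54-fold lower, and ELOB, a partner of VHL, was 1.51-fold lower. Of 34 other HIF targets, 9 were higher and 3 were lower, which is 26.5% and 8.82% of them, beside 13.3% and 12.2% of all genes compared, with a median log2 ratio of 0.27 beside 0.016. Like the other lists, this one was chosen with earlier results of these data known, so its shares do not test for an excess. CA12, a cell-surface carbonic anhydrase, led with 3447 counts in the SNHG15 library against 506 in the vector library, a ratio of 7.89 (7.18 to 8.67). TMEM45A, a transmembrane protein, stood at 4.76 (3.84 to 5.95). PLIN2, the coat protein of lipid droplets, had 4572 counts in the SNHG15 library against 19239 in the vector library and was 3.63-fold lower, and KIAA1549L was 3.49-fold lower. DDIT4, a stress-induced inhibitor of mTOR signalling, stood at 1.42 (1.39 to 1.45), neither by the rule.

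**Figure D5:**
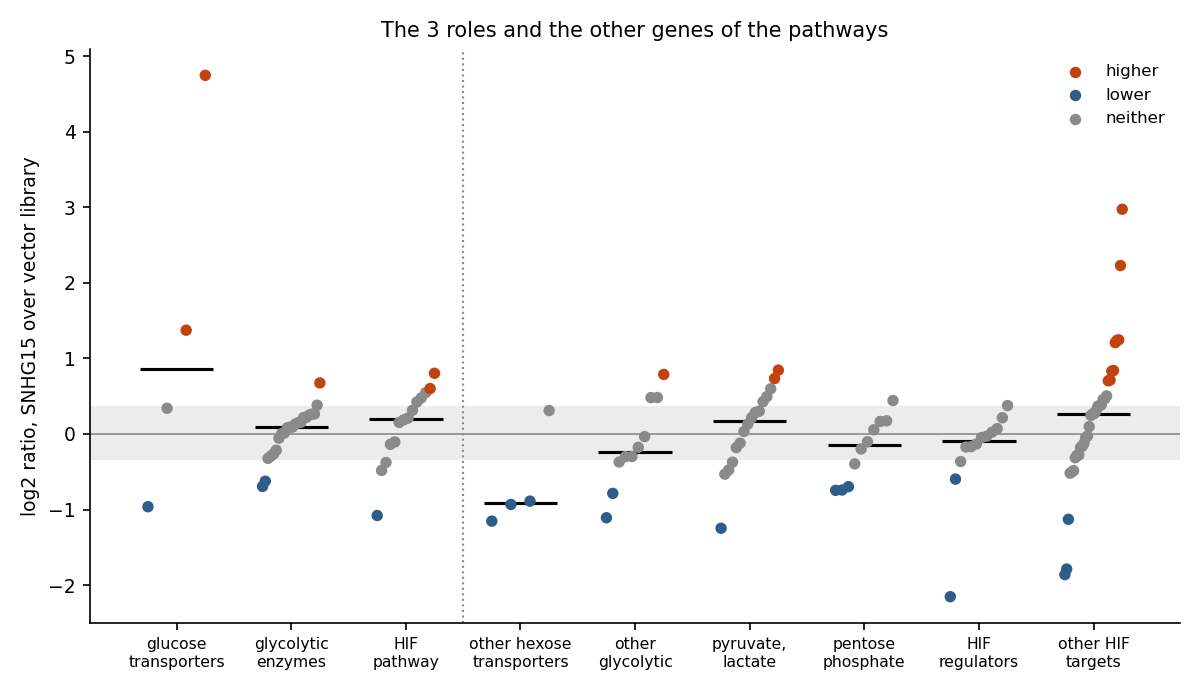
Log2 ratio with a prior count of 2, SNHG15 over vector library, of each gene compared in the 3 roles (left of the dotted line) and in 6 lists of other pathway genes, with black bars at the medians and a grey band for the middle 50% of all genes compared. The medians lie between -0.91 (other hexose carriers) and 0.86 (glucose transporters). The transporter median includes SLC2A3, which passed the filter on level only through the SNHG15 library.

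In the authors' deposited table, 2 of the 42 genes were called up, beside 4.88% of its 19029 genes, and 0 were called down, beside 3.27%. The genes called up in the authors' deposited table were SLC2A3 with an adjusted p of 1.37e-28 and SLC2A1 with an adjusted p of 1.06e-08. Those p-values equal the exact test of edgeR under an assumed coefficient of variation of 0.1, which 1 library per group cannot estimate. No count of the 42 genes by adjusted p alone is given, because the share over all 19029 genes was not computed. The deposited p-values and the calls made here come from the same counts, so neither is separate evidence for the other.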

How the data were processed

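Total RNA of BT549 cells was sequenced, with 1 library per group, per the labels. Per the submitters' processing notes the genome build is hg38; how reads were aligned, counted and annotated, and whether strand was kept, are steps not given in the sources used here. Whole-number counts per gene and FPKM are those the authors deposited, per the file headers, beside a log2 ratio of the FPKM and p-values. The deposited calls take an absolute log2 ratio of at least 1 and an adjusted p below 0.05.

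From the counts, TMM factors (1.04 for SNHG15 and 0.960 for vector) came from edgeR 4.0.16 in R 4.3.3, and DESeq2 1.42.0 gave the other size factors (0.943 and 1.06). Ratios have exact conditional-binomial 95% intervals (scipy 1.17.1); log2 ratios use a prior count of 2. At the median, a compared gene held 284 counts with SNHG15 and 315 with vector. Reads are not independent molecules, so intervals cover counting error only. GC content and principal transcript lengths came from GENCODE 29, which held 18903 of the identifiers; all 42 genes had a GC value. The functions were tested on simulated data. Alternatives were DESeq2 size factors, library totals, no filter or 5 CPM, a prior count of 0.5, FPKM with a pseudocount of 1 or 0.1, removal of the GC trend (lowess, span 0.5), subtraction of the median of the nearest 40 genes, and 2-fold rules.

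The genes named are all 42, SNHG15 and, of each list of other pathway genes, up to 4 called genes by the interval bound nearest to 1, with DDIT4 and CA12. SLC16A3 and the genes of the overlapping and related rows were named after their values were seen. VIM, CDH1, KRT8, ERBB3, SPARC, CDH2, ZEB1, FN1, SNAI2, CD14, ITGAM, TEK, KDR, APOA1 and SERPINA1 come from the lists of cell type markers. Those given with values of their own (VIM, CDH1, KRT8, ERBB3, CDH2, CD14 and TEK) were picked after their values were seen. The members and lists were chosen with earlier results of these data known. Of the 42 genes, 20 overlap another listed gene, 8 in the same orientation and 14 in the opposite one (2 of them in both), and their counts are uncertain to that extent. Deposited subsets of the same table were not used.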

Additional observations from a re-analysis of the deposited data

How the results depend on the processing

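Under library totals the 12934 genes compared had a median log2 ratio of 0.13, against 0.016 under TMM, and split into 18.4% higher and 8.90% lower. With library totals 2 of the 42 genes were lower and the enzymes had a median of 0.21. FPKM with a pseudocount of 1 gave 2 lower, a transporter median of 0.59 and an enzyme median of 0.18; with 0.1 it gave 2 lower and an enzyme median of 0.20. With the GC trend removed the transporter median was 1.05. Relative to the nearest genes 2 were higher, with medians of -0.045 for the enzymes and 0.018 for the HIF pathway. With the whole interval past 2-fold, 2 were higher and 0 lower, and at 2-fold without an interval 2 and 1. The cause of these shifts was not tested, beyond the stricter rules themselves. DESeq2 size factors, no filter, 5 CPM and a prior count of 0.5 left the counts of calls within 1.5 times. HK1 was called lower relative to the nearest genes (log2 ratio -0.60), SLC2A8 higher with the GC trend removed (0.63) and ANKRD37 higher with library totals (0.66). Isozyme shares by principal transcript length were added after seeing the data; the order of LDHA and LDHB, of P4HA1 and P4HA2, and of BNIP3 and BNIP3L in the SNHG15 library differs with the length, so no order is given for them. No paired analysis was possible because each group holds 1 library, and for the same reason no replicate could be left out. At 6 counts in the vector library, depth limits SLC2A3 most, and SLC2A10 and SLC2A12 were too low to compare.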

Other observations

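Rows of genes related to the 42 held further counts. The pseudogene TPI1P1 had 4078 counts in the SNHG15 library against 5349 in the vector library. PGAM4, a close copy of PGAM1, had 151 and 265 counts in the same order, and adding the PGAM1 copies gave a ratio of 1.09 for PGAM1. LDHAP4 had 190 counts in the SNHG15 library against 248 in the vector library, and LDHA with its 5 pseudogene rows stood at 1.30. BNIP3P1 had 35 and 30 counts, and BNIP3 with it stood at 1.39. PNMA2, on the strand opposite to BNIP3L, had 19 counts in the SNHG15 library against 108 in the vector library, and BNIP3L with it stood at 0.627. Whether reads were divided between these rows was not tested.

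Of 5 haematopoietic markers 2 were in the table (CD14 and ITGAM), with 8.17 CPM in all in the SNHG15 library against 17.7 CPM in the vector library. Of 5 endothelial markers 2 were in the table (TEK and KDR), with 0.232 CPM against 3.75 CPM in the same order, and of 4 hepatocyte markers 2 (APOA1 and SERPINA1), with 0.695 CPM against 0.401 CPM. The other markers were not analysed here. CD14, a monocyte marker, had 7.71 CPM in the SNHG15 library against 17.4 CPM in the vector library. TEK, an endothelial receptor, had 3 counts in the SNHG15 library against 74 in the vector library. Their part in the differences of glucose transport genes was not tested.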
